A study of Saccharomyces cerevisiae with 14 samples.

Results

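RNASeq libraries of a yeast strain that overexpresses the cytosolic chaperonin gene TCP1 (oe TCP1) were set against libraries of 3 other chaperone-enriched strains (ChES). The members were the 3 libraries labelled as TCP1 overexpression, numbered 1 to 3, of 11 libraries with values in all. The other 8 were 3 libraries labelled oe SSC1 (mitochondrial Hsp70), 3 of oe LHS1 (an Hsp70-related protein of the endoplasmic reticulum) and 2 of oe EGD2 (the alpha chain of the ribosome-bound complex NAC). All 4 ChES are of the Y258 background, and the labels place them in -URA medium with 2% glucose at 30 °C, in exponential growth. The methods of the study describe induction in galactose and cells taken after the diauxic shift, so the growth stage is given differently by the 2 sources. The 3 empty vector control libraries are not analysed here, and each comparison below is between strains that all carry an overexpression plasmid. The methods call the libraries biological triplicates.

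TCP1 encodes the alpha subunit of the CCT chaperonin, also called TRiC. This chaperonin is a double ring of related subunits, each from a gene of its own, and all of them are essential in yeast. It encloses newly made proteins and folds them with the energy of ATP, and its best known clients are actin, the tubulins and proteins with WD repeats. Prefoldin hands unfolded actin and tubulin over to it.

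The values were DESeq2-normalized counts, that is, reads per gene divided by a size factor of each library. The oe TCP1 libraries held 18154378, 20286329 and 10127206 reads (numbers 1, 2 and 3), against 10357513 to 18332088 in the other 8 libraries, so library 2 was the deepest and library 3 the shallowest of all. Of 7122 genes, 6592 had a mean of at least 5 normalized counts and were compared. The a-cell receptor gene STE2 had 7872, 9117 and 13181 normalized counts in the oe TCP1 libraries, against 7013 to 13307 in the other strains, and the alpha-factor gene MF(ALPHA)1 had 55.0, 48.8 and 93.8, against 27.4 to 76.4. The oe TCP1 library 3 stood apart from the other 2 of its strain, and the main results are given with and without it. The targeted gene went against the label in part of the oe SSC1 libraries. SSC1 had 30045, 82518 and 11336 normalized counts there, against 19700 to 32390 in oe LHS1 and oe EGD2, so these are called the libraries labelled oe SSC1. EGD2 was not called by limma between oe TCP1 and oe EGD2, where TCP1 was the only call. Its log2 difference between oe TCP1 and the mean of the other strains was -0.35. In that mean oe EGD2 was averaged with oe SSC1 and oe LHS1, so these values cannot decide whether the oe EGD2 label holds.

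TCP1 itself was far higher in oe TCP1 than in any other strain, and it was the only gene to pass the test against the mean of the other strains. TCP1 (YDR212W, chrIV:887232-888911 in R64, the assembly of sacCer3) had 22042, 47002 and 26906 normalized counts in the oe TCP1 libraries. Under the oe SSC1 label it had 2194, 1932 and 2456, in oe LHS1 1824, 2522 and 2577, and in oe EGD2 2122 and 1726. The lowest oe TCP1 library thus lay 3.10 above the highest of the other 8 on the log2 scale, and no library overlapped. The means were 31983 ± 13232 in oe TCP1 (SD, n = 3) and 2169 ± 327 in the other 8 libraries (SD, n = 8), a ratio of 14.7. On the log2 scale of the normalized count plus 1, the difference from the mean of the 3 other strains was 3.84 (SE 0.262, adjusted p = 0.00026 by limma with Benjamini-Hochberg adjustment). An exact two-sided permutation test gave p = 0.0121 for 3 against 8 libraries, the smallest that this design allows. Reads of the chromosomal and of the plasmid copy cannot be told apart. GCD6, a translation initiation factor subunit gene just upstream, had 2184, 2344 and 3644, against 1843 to 3108, and UPC2, a regulator of sterol genes downstream, had 1065, 1377 and 704, against 1119 to 2935. Both neighbours were chosen after their values were seen, and neither passed the test.

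Only 1 of 6592 genes was called against the other strains (0.0152%), and 24 had an unadjusted p under 0.05 (0.364%). The quasi-likelihood test of edgeR on the recovered reads also called TCP1 alone, with an adjusted p of 0.00066 and 32 genes at an unadjusted p under 0.05 (0.485%). DESeq2 on the same reads called 3 genes (0.0455%), with 75 at an unadjusted p under 0.05 (1.14%). Its additional calls were LHS1 (log2 difference -1.62, adjusted p = 0.0019), which the oe LHS1 libraries carry at 23647 to 60337 normalized counts, and MIT1 (-0.75, adjusted p = 0.034). In limma both missed the threshold, as did every gene other than TCP1 (adjusted p = 1.00). Without the oe TCP1 library 3, TCP1 was still the only call, at a log2 difference of 3.92 (adjusted p = 0.0015 by limma).

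Against each strain on its own, TCP1 was higher by 3.80 on the log2 scale than in the libraries labelled oe SSC1 (adjusted p = 0.0017), by 3.73 than in oe LHS1 (adjusted p = 0.00098) and by 3.98 than in oe EGD2 (adjusted p = 0.0030, all by limma). HIP1, the high-affinity histidine permease gene, was the other call against the libraries labelled oe SSC1. HIP1 had 1713, 2037 and 3620 normalized counts in oe TCP1, against 31571, 46307 and 27237 in those labelled oe SSC1, a log2 difference of -3.87 (adjusted p = 0.0026 by limma). HIP1 had 1564 to 2732 in oe LHS1 and oe EGD2, a range that 2 of the 3 oe TCP1 libraries shared. The other call against oe LHS1 was LHS1, with 1632, 1361 and 2094 normalized counts in oe TCP1 and 23647, 56679 and 60337 in oe LHS1, a log2 difference of -4.69 (adjusted p = 0.00098 by limma). Calls were thus 2 of 6592 (0.0303%), 2 (0.0303%) and 1 (0.0152%) for the 3 pairs, with 39 (0.592%), 104 (1.58%) and 48 (0.728%) genes at an unadjusted p under 0.05. With only the libraries of the 2 strains in the fit, none of these pairs gave a call (TCP1 adjusted p = 0.18 against the libraries labelled oe SSC1, 0.12 against oe LHS1 and 1.00 against oe EGD2 by limma, with 12, 219 and 24 genes at an unadjusted p under 0.05). The call against oe EGD2 was also lost without oe EGD2 library 1 (adjusted p = 0.067) or library 2 (adjusted p = 0.12), and in edgeR (adjusted p = 0.066).

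**Figure D1:**
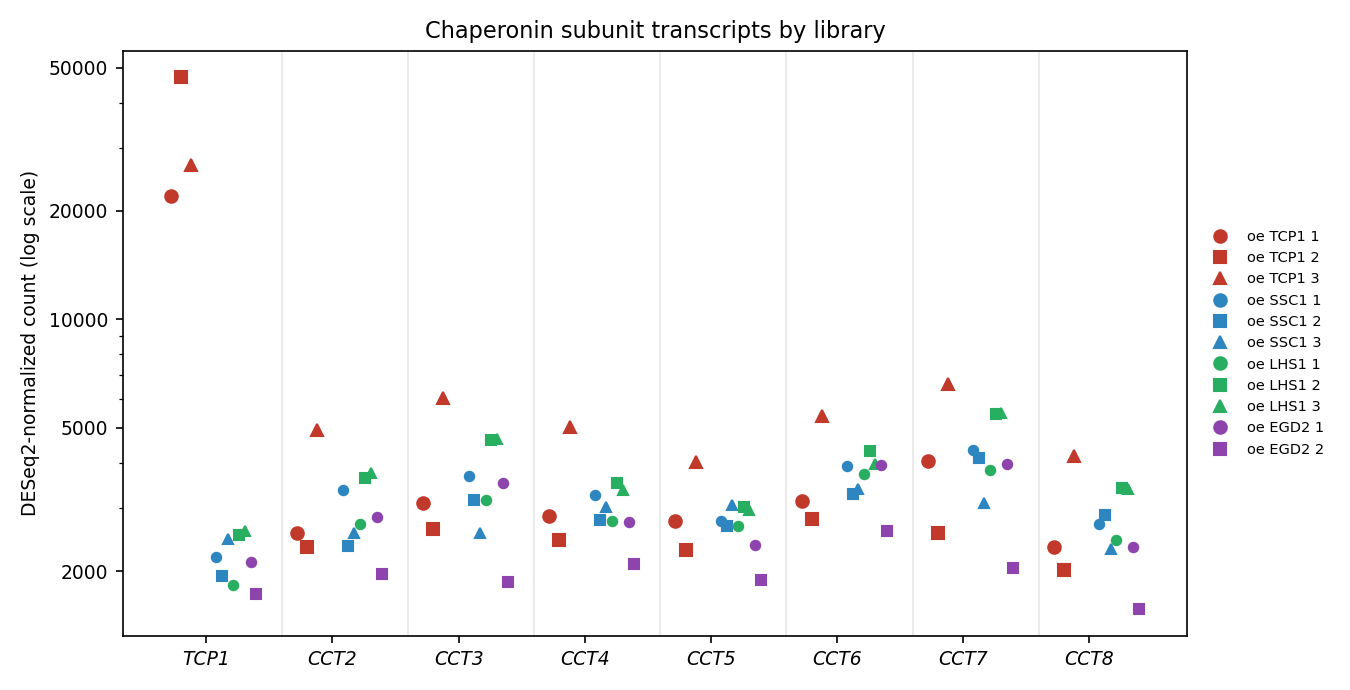
Normalized counts (log scale) of TCP1 and the other 7 CCT subunit genes in each library, with the oe TCP1 libraries left of the other strains for each gene (colour gives the strain as labelled, shape the library number). All 3 oe TCP1 libraries lie above the rest for TCP1, while for CCT2 to CCT8 only oe TCP1 library 3 does.

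None of the other 7 CCT subunit genes passed the test in oe TCP1. CCT2 had 2549, 2339 and 4916 normalized counts in oe TCP1, against 1957 to 3755 in the other strains, and CCT7 had 4043, 2552 and 6627, against 2044 to 5506. For every one of the 7, oe TCP1 library 3 lay above all 8 libraries of the other strains, as it did in 23.8% of all genes, and libraries 1 and 2 lay inside their range. The log2 differences were between 0.02 (CCT6) and 0.20 (CCT4), with standard errors of 0.20 to 0.32, and all 7 had a negative difference once oe TCP1 library 3 was left out (-0.04 for CCT5 to -0.27 for CCT6). The 9 genes for prefoldin and CCT cofactors had no call, and 7 of the 9 were above all 8 others in oe TCP1 library 3, beside the same 23.8%. GIM3, a prefoldin subunit gene, had 990, 944 and 2250, against 873 to 1604. Of 11 client genes none was called. ACT1 (actin) had 13152, 23458 and 21826, against 11575 to 22343, and TUB2 (beta-tubulin) had 5092, 3254 and 5539, against 2712 to 6771, so both overlapped with the other strains.

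Besides TCP1, 10 genes had all 3 oe TCP1 libraries on 1 side of all 8 others. Of 6592 genes, 11 did so (0.167%), 3 above (0.0455%) and 8 below (0.121%), and apart from TCP1 none was called by limma. Since these genes were picked for the lack of overlap, no permutation test is given for them. If the libraries were exchangeable, a gene would separate in this way with probability 0.0121, the smallest value of the permutation test above. The share of 0.167% is below that, so the number of such genes is no sign of a strain difference, and their values are a description only.

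MIT1, which encodes a transcriptional regulator of pseudohyphal growth, had the widest gap below the other strains among genes with a mean of at least 50. MIT1 (YEL007W, chrV:141892-143892) had 1361, 1427 and 1042 normalized counts in oe TCP1, against 1870 to 2580 in the other strains. The means were 1277 ± 206 (SD, n = 3) and 2164 ± 238 (SD, n = 8), with a log2 difference of -0.77 (SE 0.176), and the highest oe TCP1 library lay 0.39 below the lowest of the others on the log2 scale. YEL008W (chrV:140512-140892), the next annotated gene upstream of MIT1, was also below in all 3 libraries, with 16.5, 16.7 and 12.6 normalized counts in oe TCP1, against 25.6 to 128 in the other strains. These values rest on 24, 24 and 9 reads, and YEL008W was named after its values were seen. The genes on either side overlapped with the other strains. GCN4, the activator of amino acid synthesis genes, had 9509, 12631 and 17917, against 8421 to 15649, and YEA6, a mitochondrial NAD transporter gene, had 839, 1119 and 1105, against 763 to 1162.

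GCR1, which encodes the main activator of the glycolytic genes, was below all others with 2210, 1982 and 1838 normalized counts in oe TCP1, against 2406 to 3930 in the other strains (log2 difference -0.63, SE 0.199). The gap was narrow, since oe EGD2 library 2 had 2406. The 17 glycolytic genes did not lie on 1 side, with medians of -0.81, 0.36 and 0.18 in oe TCP1 libraries 1, 2 and 3 relative to the mean of the 8 others on the log2 scale. MEH1, a subunit gene of the EGO complex that signals to TORC1 at the vacuole, had 699, 672 and 708, against 798 to 1100. The oe TCP1 libraries lay closely together for MEH1, including library 3 (log2 difference -0.39, SE 0.159). COA4, an assembly factor gene of cytochrome c oxidase, had 212, 245 and 176, against 255 to 1000, where the upper end was 1 library labelled oe SSC1. The kinetochore gene MCM21 had 520, 491 and 477, against 537 to 636, and APL3, a subunit gene of the AP-2 adaptor of endocytosis, had 840, 869 and 886, against 897 to 1442. The last of the 8 was YHL002C-A, with 4.12, 4.88 and 4.20, against 5.21 to 12.7, which rests on 3 to 7 reads per oe TCP1 library and was named after its values were seen.

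On the high side, FDC1, a gene needed to decarboxylate ferulic and cinnamic acid, had 1535, 1156 and 1421 normalized counts in oe TCP1, against 693 to 1123 in the other strains (log2 difference 0.56, SE 0.203). Its neighbour and partner gene PAD1 had 213, 135 and 119, against 111 to 223, and did not separate. MRPL22, a protein gene of the large mitochondrial ribosomal subunit, had 1382, 1223 and 1284, against 968 to 1209. The list of non-overlapping genes depended on every oe TCP1 library. It held 108 genes without library 1, 114 without library 2 and 63 without library 3, and 18 without library 2 and 27 without library 3 labelled oe SSC1 and 29 without oe EGD2 library 2, where fewer libraries have to agree.

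**Figure D2:**
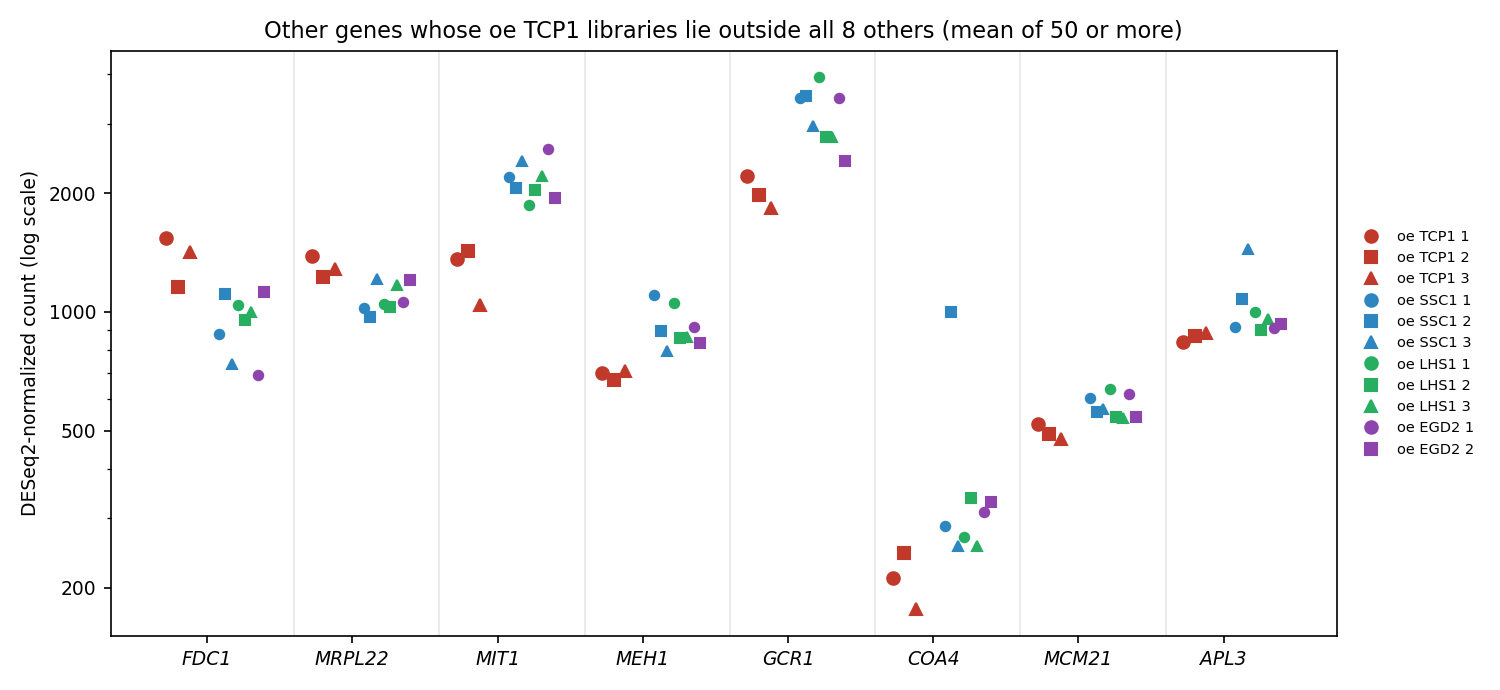
Normalized counts (log scale) of the 8 genes with a mean of at least 50, other than TCP1, for which all 3 oe TCP1 libraries (left in each gene) lie above or below all 8 other libraries (colour gives the strain as labelled, shape the library number). FDC1 and MRPL22 lie above and the other 6 below, and the gap is widest for MIT1.

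Over the 32 gene lists used, which hold 870 different genes, TCP1 was the only member called in oe TCP1 against the other strains. The list medians of the log2 difference were between -0.40 for the mitochondrial and endoplasmic reticulum chaperones and 0.57 for the 6 mitochondrially encoded genes, beside 0.00 for all 6592 genes. Some of the list medians changed sign with single oe TCP1 libraries left out, but those of the lists just named did not. Without each oe TCP1 library in turn, the mitochondrial and endoplasmic reticulum chaperones had -0.41 to -0.27. The mitochondrially encoded genes had 0.37 to 0.83. By library, the medians of both lists relative to the mean of the 8 others overlapped with those of the other strains. The chaperones had -0.31, -0.20 and -0.54 in oe TCP1 libraries 1, 2 and 3, against -0.36 to 0.17 in the other strains. For the mitochondrially encoded genes these were -0.10, 0.78 and 0.96, against -0.91 to 0.77. Without library 3 the median of the general stress genes was 0.96, against -0.15 with all libraries, that of the ribosome biogenesis genes was -0.24, against 0.38, and that of the mitochondrially encoded genes was 0.37. Without library 2 the general stress genes had -0.98 and the ribosome biogenesis genes 0.83, and without library 1 they had -0.56 and 0.61. Quantile scaling gave 0.94 for the mitochondrially encoded genes. Of the mitochondrially encoded genes, COX1, a subunit gene of cytochrome c oxidase, had 35.1, 35.5 and 61.6 normalized counts, against 9.78 to 36.0, so the values rest on few reads. Among the genes nearest to separation in these lists was ANB1, the hypoxic form of translation factor eIF5A, with 271, 402 and 214, against 322 to 1270 (log2 difference -1.34, SE 0.401), where 2 of the 3 oe TCP1 libraries lay below all others. The hypoxic cell wall gene DAN1 had 94.8, 78.0 and 32.2, against 60.1 to 7689, and overlapped. BAT1, the mitochondrial branched-chain aminotransferase gene, had 9304, 5688 and 13081, against 3964 to 6984, and LEU1, an enzyme gene of leucine synthesis, had 22229, 11459 and 10996, against 4335 to 14435. Neither passed the test.

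The small number of calls stood beside a wide spread among the oe TCP1 libraries. Libraries 1 and 2 differed over 2-fold in 942 genes (14.3%), libraries 1 and 3 in 1898 (28.8%) and libraries 2 and 3 in 2420 (36.7%). In 928 genes (14.1%) at least 1 pair differed over 4-fold, and in 201 genes libraries 1 and 2 did. Library 3 was the highest or the lowest of the 3 in 5248 genes (79.6%). In every gene 2 of the 3 libraries hold these places, so this share is to be read beside 2 in 3. Set against the mean of the other 2, library 1 was over 2-fold above in 664 genes (10.1%) and below in 121 (1.84%), library 2 in 750 (11.4%) and 762 (11.6%), and library 3 in 923 (14%) and 1112 (16.9%). The median SD of a gene across the libraries of a strain was 0.48 on the log2 scale in oe TCP1 (n = 3), 0.43 for the oe SSC1 label (n = 3), 0.29 in oe LHS1 (n = 3) and 0.28 in oe EGD2 (n = 2).

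Each oe TCP1 library was closer to libraries of other strains than to its own. Library 1 was closest to oe LHS1 library 1, with 297 genes over 2-fold apart and a median difference of 0.21 on the log2 scale, followed by library 1 labelled oe SSC1 (329 genes) and oe EGD2 library 1 (501 genes). Library 2 was closest to oe EGD2 library 2, with 111 genes over 2-fold apart and a median difference of 0.14, and then to library 3 labelled oe SSC1 (426 genes). Library 3 was closest to oe LHS1 libraries 3 and 2, with 676 and 689 genes over 2-fold apart and median differences of 0.31 and 0.32. Against the mean of the other strains' libraries with the same number, TCP1 was higher by 3.43, 4.53 and 3.42 on the log2 scale in libraries 1, 2 and 3, beside median differences of 0.21, 0.36 and 0.45 over all genes. In that comparison 171 genes were over 2-fold above and 109 below in library 1, 410 and 540 in library 2, and 490 and 801 in library 3, each from a single oe TCP1 library and thus without a test.

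**Figure D3:**
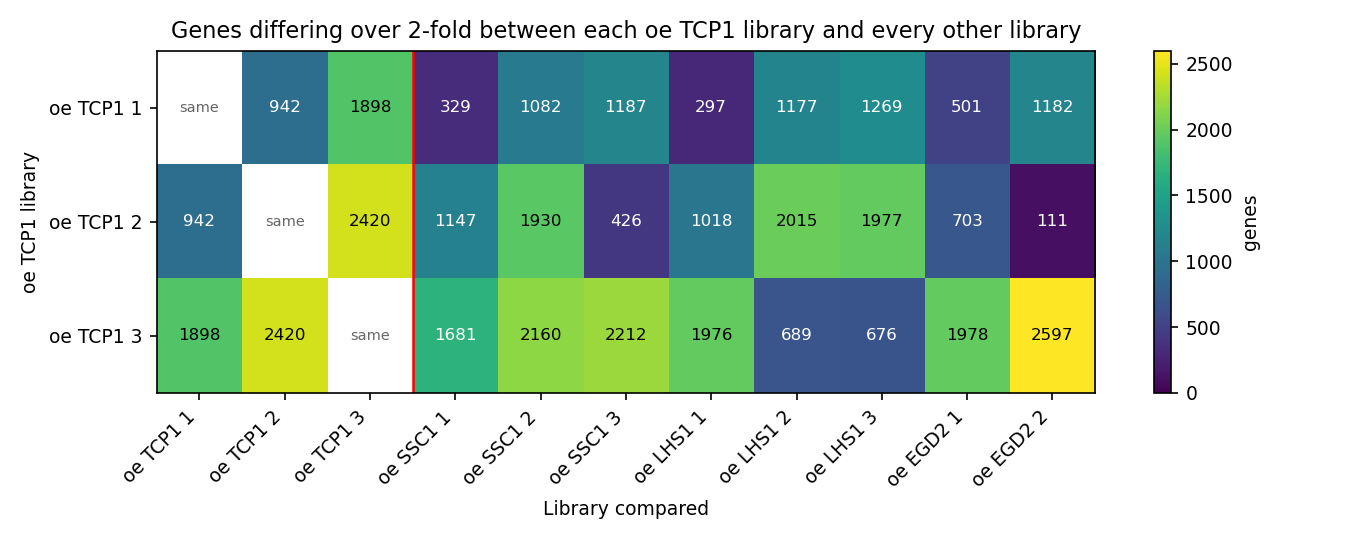
Number of genes that differ over 2-fold between each oe TCP1 library (rows) and each of the 11 libraries (columns), of 6592, with the oe TCP1 libraries left of the line. The lowest counts are 297 for library 1, 111 for library 2 and 676 for library 3, each with a library of another strain.

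Relative to the 8 libraries of the other strains, oe TCP1 library 3 lay above all of them in 1570 genes (23.8%) and below all of them in 1420 (21.5%). For library 1 these were 338 (5.13%) and 328 (4.98%), and for library 2 they were 435 (6.6%) and 449 (6.81%). On the first principal component, which held 57.2% of the variance, library 3 was at 33.2, inside the range of the other strains (-58.2 to 61.9). Libraries 1 and 2 were there at -9.31 and -51.4. On the second principal component, which held 19.0% of the variance, library 3 was at 59.7, beyond all others (-35.5 to 23.6). Libraries 1 and 2 were at -21.1 and 3.90 on it. The groups of genes that followed are described for single libraries, with no test between them.

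In oe TCP1 library 3, genes of the general stress response and of storage carbohydrates were at their lowest of all libraries. In yeast these genes are induced by the factors Msn2 and Msn4 when glucose runs low or cells are stressed, and they are kept low by protein kinase A during growth on glucose. Of 27 general stress genes, 21 lay below all 8 others in library 3, and of 18 genes for trehalose and glycogen 17 did, beside 21.5% of all genes. The medians of the stress genes were 0.65, 1.71 and -2.70 in oe TCP1 libraries 1, 2 and 3, against -1.91 to 1.39 in the other strains, and those of the storage genes were 0.79, 1.12 and -2.37, against -1.41 to 1.51. The oe LHS1 libraries 2 and 3, the closest to library 3, were on the same side, with -1.73 and -1.91 for the stress genes and -1.41 and -1.37 for the storage genes. HXK1, the hexokinase gene that is repressed by glucose, had 44415, 92820 and 651 normalized counts in oe TCP1, against 2690 to 116407 in the other strains. TMA10, whose protein associates with ribosomes, had 18405, 45775 and 491, against 1887 to 43090. Library 3 was the lowest of all 11 for both, and library 2 was the highest for TMA10. PHM7, a membrane protein gene, had 19800, 11717 and 227, against 584 to 12047, with library 1 the highest, and the trehalose synthase subunit gene TSL1 had 33404, 29161 and 749, against 3678 to 38599.

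Msn2 and Msn4 bind the stress response element, AGGGG. This motif, on either strand, was present in 232 of 377 promoters (61.5%) of the genes in which library 3 was over 4-fold below the mean of libraries 1 and 2. It was present in 21 of 27 promoters (77.8%) of the general stress genes and in 1348 of 5824 promoters (23.1%) of all genes compared. The promoter was taken as the 300 bases from 350 to 51 before the start codon. Here and below a match describes the letters and is not a binding site. The windows of HXK1 (chrVI:255100-255399, minus strand) and TMA10 (chrXII:783438-783737, minus strand), from RefSeq R64, are given 5′ to 3′ as examples of genes that differed most between the oe TCP1 libraries, with AGGGG or its reverse complement in capitals.
HXK1: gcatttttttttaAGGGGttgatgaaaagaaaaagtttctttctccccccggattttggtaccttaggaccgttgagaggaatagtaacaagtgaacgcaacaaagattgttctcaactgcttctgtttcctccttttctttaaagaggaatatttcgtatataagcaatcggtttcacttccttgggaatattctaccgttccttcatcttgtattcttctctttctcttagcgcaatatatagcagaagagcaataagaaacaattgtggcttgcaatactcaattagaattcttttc
TMA10: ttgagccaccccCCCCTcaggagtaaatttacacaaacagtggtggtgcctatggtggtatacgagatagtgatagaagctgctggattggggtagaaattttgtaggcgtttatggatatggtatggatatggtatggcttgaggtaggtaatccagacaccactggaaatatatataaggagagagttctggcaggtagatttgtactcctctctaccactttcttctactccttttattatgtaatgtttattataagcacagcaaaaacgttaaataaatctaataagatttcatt

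Genes for making ribosomes had the opposite position in library 3. Ribosome biogenesis and ribosomal protein genes are known to be highly expressed in fast growing cells and to be repressed together when growth slows. Of 48 ribosome biogenesis genes, 47 lay above all 8 others in library 3, and of 138 cytosolic ribosomal protein genes 132 did, beside 23.8% of all genes. The medians of the biogenesis genes were -0.12, -0.53 and 1.60 in oe TCP1 libraries 1, 2 and 3, with 0.89 as the highest median in the other strains, and those of the ribosomal proteins were 0.10, -0.40 and 1.12, against -0.69 to 0.73. The oe LHS1 libraries 2 and 3 were again on the same side, with 0.81 and 0.89 for the biogenesis genes and 0.73 and 0.63 for the ribosomal proteins. NOP7, needed for the large ribosomal subunit, had 3292, 2483 and 15010 normalized counts, against 1720 to 7748. The nucleolin-like gene NSR1 had 5080, 2166 and 10971, against 1118 to 6494, and DBP2, an RNA helicase gene, had 6252, 2926 and 23510, against 1250 to 10924. For all 3 genes only library 3 was outside the range of the other strains. Reads of the paralogous pairs among the ribosomal proteins may have been split or lost in counting.

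Promoters of ribosome biogenesis genes carry the PAC motif GATGAG, known as the target of the repressors Dot6 and Tod6, and the motif named RRPE, which lies 3′ of PAC in the NOP7 window printed below. PAC was present in 46 of 48 promoters (95.8%) of the ribosome biogenesis list and RRPE in 22 (45.8%), against 1133 (19.5%) and 265 (4.55%) of all 5824 promoters. Of the 54 promoters of genes in which library 3 was over 4-fold above the mean of the other 2, 44 (81.5%) held PAC and 15 (27.8%) held RRPE. In the genes over 4-fold below, PAC was present in 52 of 377 promoters (13.8%) and RRPE in 1 (0.265%). The windows of NOP7 (chrVII:695067-695366, plus strand) and NSR1 (chrVII:807707-808006, minus strand) show both motifs, in capitals on either strand.
NOP7: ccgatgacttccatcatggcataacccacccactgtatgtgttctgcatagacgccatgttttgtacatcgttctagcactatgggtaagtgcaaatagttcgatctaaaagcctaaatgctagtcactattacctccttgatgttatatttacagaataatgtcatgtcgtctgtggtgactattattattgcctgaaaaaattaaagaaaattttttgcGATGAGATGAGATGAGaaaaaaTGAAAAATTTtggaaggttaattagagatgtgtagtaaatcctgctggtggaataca
NSR1: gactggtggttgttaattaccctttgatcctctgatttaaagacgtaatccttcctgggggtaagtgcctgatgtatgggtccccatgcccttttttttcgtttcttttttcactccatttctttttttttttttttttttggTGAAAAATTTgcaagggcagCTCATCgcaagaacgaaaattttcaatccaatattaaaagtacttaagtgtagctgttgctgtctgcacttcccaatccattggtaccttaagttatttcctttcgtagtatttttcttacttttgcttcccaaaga

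NOP7 holds 3 overlapping copies of GATGAG and 1 of RRPE, and NSR1 holds 1 of each. HXK1 and TMA10 each hold 1 copy of AGGGG and neither motif of the ribosome genes.

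**Figure D4:**
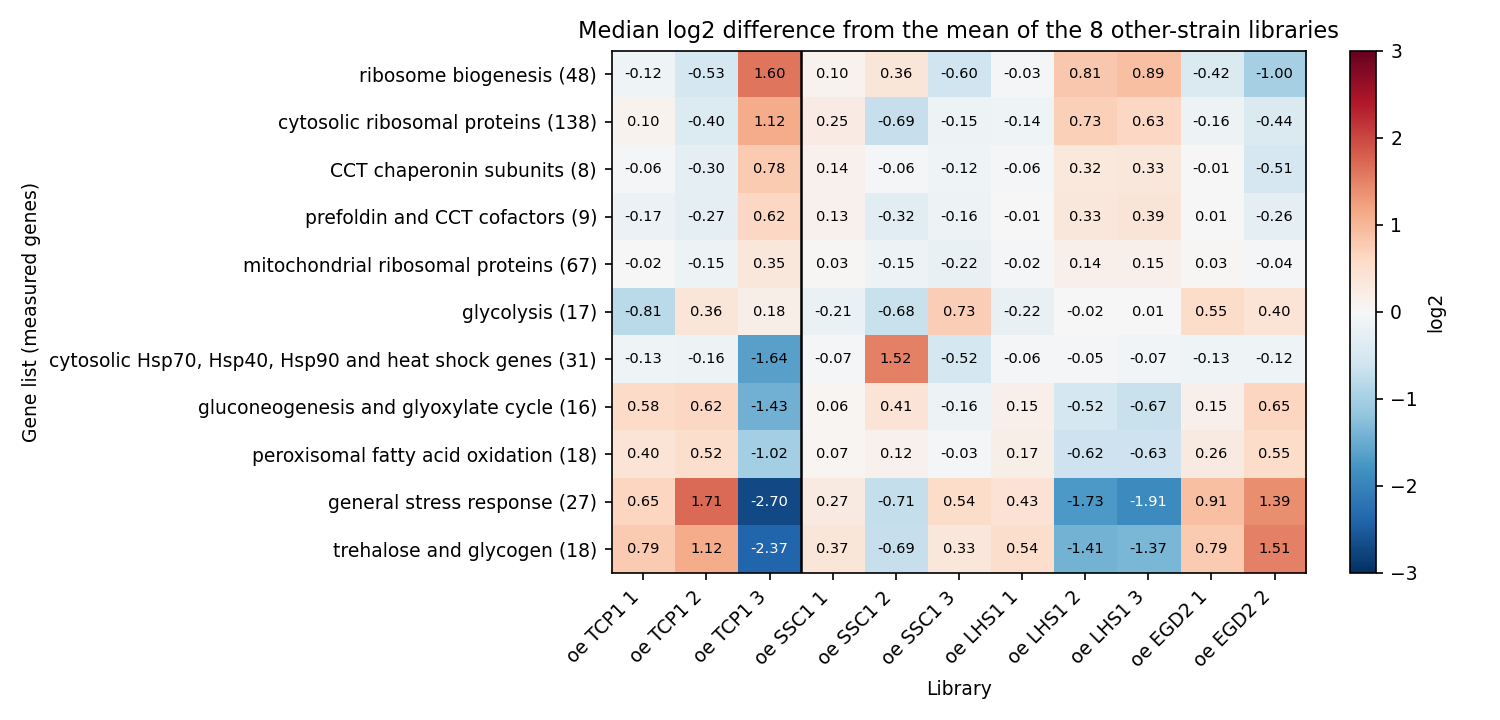
Median over each gene list of the log2 difference from the mean of the 8 libraries of the other strains, for every library, with oe TCP1 left of the line and the number of measured genes in brackets. In oe TCP1 library 3 the ribosome lists are at 1.60 and 1.12 and the general stress list at -2.70, each beyond the range of the other strains.

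Cytosolic heat shock genes were also low in library 3. Of 31 genes for Hsp70, Hsp40, Hsp90 and other heat shock proteins, 18 lay below all 8 others and 5 above, beside 21.5% and 23.8% of all genes. The medians were -0.13, -0.16 and -1.64 in oe TCP1 libraries 1, 2 and 3, against -0.52 to 1.52 in the other strains, where the upper end was library 2 labelled oe SSC1. HSP82, the stress-inducible Hsp90 gene, had 33927, 65589 and 3780 normalized counts in oe TCP1, against 24761 to 214688, and HSP42, a small heat shock protein gene, had 57907, 48425 and 1845, against 12583 to 124960. Both lay below every other library in library 3 alone, and neither was called over the 3 libraries. Of 18 peroxisomal fatty acid oxidation genes 14 were below all others in library 3, of 16 gluconeogenesis and glyoxylate genes 11, and of 8 galactose genes 6, beside 21.5% of all genes. GAL7 had 417, 187 and 42.0, against 68.1 to 284, and GAL1, which encodes galactokinase, had 538, 329 and 237, against 293 to 836. Of 27 cell cycle and histone genes 17 were above all others in library 3, beside 23.8% of all genes, and RNR1, a ribonucleotide reductase gene of S phase, had 2386, 1250 and 9312, against 984 to 5975. HO, the mating type switching endonuclease gene, had 502, 144 and 2810, against 137 to 1246.

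Some non-coding RNAs were also high in library 3. The 83 snoRNA and snRNA genes summed to 9252, 9669 and 84084 normalized counts in oe TCP1 libraries 1, 2 and 3, against 6092 to 88348 in the other strains, so library 3 lay inside that range. LSR1, the U2 spliceosomal RNA, had 1368, 945 and 53611, against 740 to 40089. The 299 tRNA genes summed to 2989, 778 and 1492, against 722 to 23715, and the RNAs SCR1 and RPR1 to 3210, 997 and 20535, against 528 to 126130. These RNAs lack long poly(A) tails, and their sums depend on how RNA was selected for the library. Their part in the differences of library 3 was not tested. Library 3 was also the shallowest, with 10127206 reads, and the part of depth in its values was not tested. URA3, the gene for which -URA medium selects, had 113922, 187255 and 367819, against 114166 to 366015, so library 1 was just below and library 3 just above all other libraries.

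**Figure D5:**
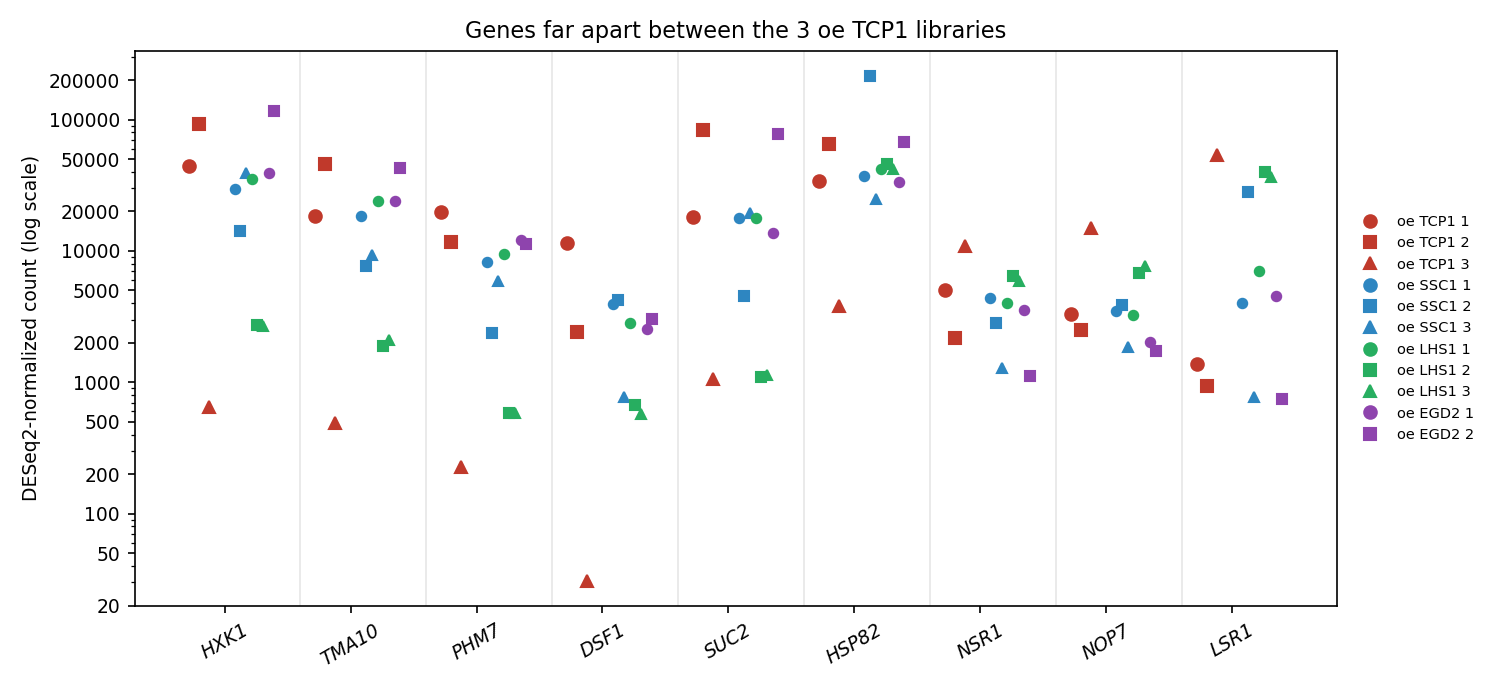
Normalized counts (log scale) of 9 genes that differ widely among the oe TCP1 libraries, with those libraries left of the other strains for each gene (colour gives the strain as labelled, shape the library number). In oe TCP1 library 3, HXK1, TMA10, PHM7, DSF1, SUC2 and HSP82 are at their lowest and NSR1, NOP7 and LSR1 at their highest of all 11 libraries.

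Among the genes in which library 1 lay farthest above the other oe TCP1 libraries were DSF1, MAN2, HXT13, GRE2 and RCK1. DSF1 and MAN2, near-identical mannitol dehydrogenase genes whose reads may have been split between them, had 11517, 2410 and 30.8 and 4394, 574 and 29.4 normalized counts in oe TCP1 libraries 1, 2 and 3. In the other strains DSF1 had 570 to 4220 and MAN2 had 255 to 1933, so library 1 was above and library 3 below all of them for both. The hexose transporter gene HXT13 had 3681, 587 and 44.8, against 222 to 1340, GRE2, a methylglyoxal reductase gene, had 20322, 3195 and 316, against 1875 to 13813, and RCK1, a kinase gene of the oxidative stress response, had 7675, 1441 and 102, against 1149 to 5603. For each of these 5 genes library 1 was the highest and library 3 the lowest of all 11. Glycolysis was low in library 1, where 9 of 17 genes lay below all 8 others, beside 4.98% of all genes. The enolase gene ENO1 had 6356, 52316 and 7652, against 7269 to 61772, and TDH2, a glyceraldehyde-3-phosphate dehydrogenase gene with close paralogs, had 11059, 17834 and 35452, against 13862 to 45523. In libraries 2 and 3, 0 and 4 of the 17 lay below all others, beside 6.81% and 21.5% of all genes.

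Among the genes with high values in library 2 were SUC2, HXT6, SPG1, SPG4 and TDH1. Of 18 peroxisomal fatty acid oxidation genes 6 lay above all 8 others there, and of 16 gluconeogenesis and glyoxylate genes 3, beside 6.6% of all genes. Of 19 hexose transporter and glucose sensing genes 1 did so, and of 8 galactose genes 0. SUC2, the invertase gene, had 18247, 83045 and 1060 normalized counts in oe TCP1, against 1091 to 77524 in the other strains, and was the highest of all libraries in library 2 and the lowest in library 3. HXT6, a high-affinity hexose transporter gene nearly identical to HXT7, had 734, 4639 and 36.4, against 118 to 7392. SPG1, a gene needed for survival in stationary phase, had 287, 2384 and 44.8, against 52.0 to 2596. SPG4, of the same kind, had 2762, 11622 and 168, against 165 to 12659. TDH1, another glyceraldehyde-3-phosphate dehydrogenase gene, had 3564, 50204 and 1579, against 1901 to 69442. For HXT6, SPG1, SPG4 and TDH1 the high values of library 2 thus lay inside the range of the other strains. For each of these genes the upper end of that range was oe EGD2 library 2. Of the 27 general stress genes 7 were above all 8 others in library 2, beside 6.6% of all genes. INO1, the first enzyme gene of inositol synthesis, had 5438, 18589 and 791, against 1695 to 15239, and was also the highest in library 2. Of 67 mitochondrial ribosomal protein genes, 15 were below all others in library 2 and 35 above in library 3, beside 6.81% and 23.8% of all genes.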

How the data were processed

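RNASeq was carried out by the authors on total RNA (Illumina, single-end). They aligned reads to sacCer3 with STAR 2.3.0e, counted them per Ensembl gene with htseq-count of HTSeq 0.6.0 without regard to strand, and removed outlier replicates by PCA. Overlapping and antisense genes therefore cannot be told apart. The deposited signal is the count divided by DESeq2 size factors (DESeq2 version not given in the sources used here). Whole reads were recovered from its steps, with 100% of values within 0.01 of a whole number. A further 4 lines without values are not reported here.

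The strain comparison used the limma package (3.58.1, R 4.3.3, trended variance) after adding 1 to each value and taking log2, with all 4 strains in the same fit, oe TCP1 against the mean of the other 3 or each strain, and adjusted p under 0.05 across the 6592 genes whose mean was 5 or more. edgeR 4.0.16, DESeq2 1.42.0 on recovered reads, and the further settings given in the closing section were alternatives. These scripts were tested on simulated data. Single genes were compared by exact permutation tests (scipy 1.17.1). Promoters, coordinates and names came from RefSeq R64, which 6045 of 7122 genes matched by systematic name.

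Genes were named by a rule: the CCT subunits, the 4 plasmid genes with URA3, called genes, the 8 widest non-overlapping genes each way with a mean of at least 50, the 6 genes farthest above or below in each oe TCP1 library, and up to 4 members per list. Called genes were those against the mean of the other strains, and list members were those with the largest log2 difference. STE2, GAL1, ACT1, GCN4, YEA6, UPC2, GCD6, PAD1 and HIP1 were chosen after their values were seen. The members and the gene lists were chosen with earlier results of these data known. The p-values of the main fit set a difference of means against the spread within strains, pooled over the 4 strains. The permutation test sets the observed split of these libraries against all other splits.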

Additional observations from a re-analysis of the deposited data

How the results depend on the processing

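TCP1 was called against the other strains under every alternative run, with a log2 difference of 3.52 to 4.07, and the count of calls stayed at 1 except with DESeq2 (3 genes). Its permutation test stayed below 0.05 with other pseudocounts, TMM or quantile scaling and without each library in turn, where the difference was 3.50 to 4.05. The counts of calls against the libraries labelled oe SSC1, oe LHS1 and oe EGD2 (2, 2 and 1) fell to 0, 0 and 0 with only the libraries of the 2 strains in the fit, which have fewer samples to estimate the spread. Against oe EGD2 the count was also 0 in edgeR (97 genes at an unadjusted p under 0.05) and ranged from 0 to 1 with libraries left out. When an oe EGD2 library was left out, the lone remaining one was assumed to vary like the others. Without single libraries, the count against the other strains was 1 to 1, against the libraries labelled oe SSC1 2 to 2 and against oe LHS1 2 to 2. The number of genes without overlap was 11 to 114, and 12 and 10 with no filter and with a mean of at least 20. The 928 genes past 4-fold between oe TCP1 libraries became 766 to 968 with other pseudocounts and filters. Against the mean of the other strains, MIT1 and LHS1 were called with DESeq2 only.

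The labels share replicate numbers, but only 8 of 15 same-numbered pairs of libraries deviated together from their strain means with r over 0.1 (-0.58 to 0.64), so the numbers were not taken as pairs. In these deviations 8 of 11 libraries correlated best with a library of their own number. Each oe TCP1 library was also closest to a library of the same number, so the numbers went with part of the differences. The deviations of the 2 oe EGD2 libraries mirror each other, which limits this check. With a replicate block the counts of calls were 1 against the other strains and 2, 2 and 1 against the single strains. List members called stayed at 1 in all 14 alternatives run for the lists. Scaling moved the median of all genes to 0.00 (TMM) and 0.03 (quantile) on the log2 scale, and of CCT2 to CCT8 only CCT6 changed sign with it (-0.06 with quantile scaling). The depth of oe TCP1 library 3 limits genes with few reads, and 3 oe TCP1 libraries this far apart limit every comparison of the strain.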
